A study of Mus musculus with 18 samples.

Results

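The genes described are 10 transcriptional targets of the tumour suppressor p53, taken by gene symbol from a table of RNA-seq read counts: Cdkn1a, Mdm2, Ccng1, Trp53inp1, Bax, Eda2r, Phlda3, Sesn2, Gdf15 and Aen. They were listed for their known regulation by p53, and all 10 are among the 24602 genes of the table. The 18 mouse libraries came from 129S1/SvlmJ mice of a study in which the R388W change was knocked into Nup93, a structural subunit of the nuclear pore. The groups were R388W/R388W (Hom), R388W/+ (Het) and wild type (WT), each with nuclear RNA and with total RNA in 3 libraries. No other allele, agent or age was named, and all libraries were made from TRIzol-extracted RNA with a stranded mRNA kit. The series text set podocytes, the epithelial cells that wrap the glomerular capillaries, of homozygous mutant mice beside those of wild-type mice, whereas the sample labels called the material only mouse tissue. Whether replicates stand for different mice was not stated, and p-values therefore describe variation among the 3 libraries of a group, possibly technical.

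Libraries held between 17.4 and 23.5 M (1000000) counts. The column of total WT replicate 1 held the sum of the 9 nuclear libraries in addition to its own reads, and that sum was subtracted before any value below. Kidney tubule transcripts led the libraries: the proximal tubule list took 3.14% to 5.62% of the counts, against 0.0398% to 0.0611% for the podocyte list. Xist, the RNA of the inactive X chromosome, averaged 504 CPM (counts scaled by TMM factors to a library of 1000000) in nuclear Hom, 516 in nuclear Het and 0.538 in libraries labelled nuclear WT, but 1.25 in total Hom, 0.624 in total Het and 346 in libraries labelled total WT. The summed level of 4 Y-linked genes ran the opposite way. Each comparison of Hom or Het with WT inside a fraction is therefore also a comparison of libraries with opposite Xist status, and genotype and Xist status cannot be told apart there. Hom and Het libraries of a fraction matched in Xist status, and it balances in the mean of the nuclear and the total change where its effect is the same in both fractions. The fraction labels were set against RNAs kept in the nucleus. Malat1 was -0.043 ± 0.061 (adjusted p = 0.578) in nuclear against total Hom on the log2 scale, 0.22 ± 0.061 (adjusted p = 0.00632) in Het and -0.42 ± 0.062 (adjusted p = 5.22e-05) in WT. For Neat1 the values were 0.072 ± 0.020 (adjusted p = 0.00110) in Hom, 0.32 ± 0.020 (adjusted p = 1.03e-31) in Het and -0.14 ± 0.020 (adjusted p = 4.98e-10) in WT. Both RNAs were thus lower in the libraries labelled nuclear WT than in those labelled total WT, which goes against these labels. In Hom, Malat1 was not called different and Neat1 was higher by only 0.072, so nuclear enrichment is not clear there either. Whether the fraction labels are right was not tested. Every direction against WT inside a fraction rests on the WT labels. Hom against Het uses no WT library, but rests on the fraction labels of Hom and Het. The mean over fractions would be the same by its construction if the fraction labels of WT were exchanged. Nup93 itself averaged 20.1 CPM in nuclear Hom, 22.6 in nuclear Het and 15.9 in nuclear WT, and 21.1 in total Hom, 19.2 in total Het and 20.8 in libraries labelled total WT; as the allele changes 1 residue, its level does not check the genotype. Total Hom replicate 2 stood apart from its group, with 7.12% of its counts on the ribosomal precursor Rn45s, against 0.110% to 1.02% in the other 17 libraries.

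p53 is a transcription factor that DNA damage and other stresses stabilise, chiefly by freeing it from the ubiquitin ligase Mdm2. It then raises the transcription of genes that halt the cell cycle, promote apoptosis, repair DNA and adjust metabolism, and Mdm2 is itself one of them, which closes a negative feedback loop. In the kidney, Cdkn1a and other targets are known to be induced in tubule cells by ischaemic and toxic injury.

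p53 binds pairs of a 10-letter half-site in DNA, with 0 to 13 bases between its members. The sequences below, from RefSeq promoter windows on build GRCm38.p6, show where such half-sites lie next to the genes whose RNA is described. The table matched 9 of the 10 symbols, all but Trp53inp1, with 12 windows that run from 250 bases before to 50 bases after a start. Half-sites of the p53 consensus, which reads the same on both strands, are in capitals.
Cdkn1a (chr17:29090886-29090957, plus strand, -93 to -22 from the start): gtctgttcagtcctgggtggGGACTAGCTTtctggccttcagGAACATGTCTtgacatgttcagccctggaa
Ccng1 (chr11:40755442-40755501, minus strand, -215 to -156): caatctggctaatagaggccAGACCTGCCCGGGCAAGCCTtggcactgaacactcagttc
Bax (chr7:45467070-45467130, minus strand, -232 to -172): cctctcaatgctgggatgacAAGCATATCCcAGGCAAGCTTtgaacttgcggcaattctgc
Mdm2 (chr10:117710915-117710964, minus strand, -206 to -157): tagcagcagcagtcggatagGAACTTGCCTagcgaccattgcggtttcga
Aen (chr7:78895927-78895956, plus strand, -131 to -102 from its downstream start): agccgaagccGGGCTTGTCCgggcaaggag
Cdkn1a has an exact pair with a spacer of 12 bases, upstream of the first of its 2 starts, which lie 2790 bases apart. The 10 bases directly after its second capital run, beginning at -41, are 1 letter off the half-site. With that run they form another pair, 1 letter off the 20 and with a spacer of 0. They are in lower case because capitals mark the pair with the fewest letters off. Which of these pairs p53 binds was not tested. In Ccng1 and Bax the pair is 1 letter off the 20, with spacers of 0 and 1 bases. Mdm2 and Aen show a single half-site, and the Aen stretch also lies in an exon of the gene's other start. The windows of Phlda3, Sesn2, Gdf15 and Eda2r held no exact half-site, which says only that the letters are not there. Among all 32851 windows of this length, 8.36% held a half-site, 1.09% a pair at most 1 letter off and 0.0731% an exact pair. As the genes were listed for known regulation by p53, these matches describe them and are not a result.

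Most of the 10 genes had more RNA in mutant than in WT libraries when the nuclear and total changes were averaged. In bulk RNA, a change in the number of cells of a type and a change in RNA per cell cannot be told apart. In this mean over fractions, 8 genes rose and 1 fell in Hom against WT, where 28.0% of the 15410 genes tested rose and 30.6% fell. All 10 rose in Het against WT, where 22.3% of genes rose and 20.9% fell, and DESeq2 gave 10 and 0 in Het and 7 and 1 in Hom, with Gdf15 lost. The median log2 change of the 10 genes was 0.24 in Hom and 0.31 in Het, against 0.00048 and 0.0052 over all genes. A rise in this mean does not mean a rise in each fraction. In Het, Cdkn1a and Phlda3 rose in nuclear RNA (0.85 and 1.35) but fell in total RNA (-0.17 and -0.46), and Bax was not called in total RNA. In Hom, Gdf15 fell in nuclear RNA (-0.32) and rose in total RNA (0.68). The genes that rose in both fractions are named below. Calls are edgeR quasi-likelihood tests with Benjamini-Hochberg (BH) adjusted p under 0.05, over all genes of a fit. With library totals in place of TMM factors, 61.6% rather than 47.7% of the genes called in Hom against WT were higher, and 8 of the 10 genes rose and 0 fell.

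Inside a fraction the counts were less even, and those against WT rest on the WT fraction labels, against which Malat1 and Neat1 went. In nuclear RNA, 6 of the 10 genes rose and 1 fell in Hom against WT, where 26.5% of 15112 genes rose and 27.8% fell, and 8 rose and 0 fell in Het against WT, where 32.8% rose and 31.7% fell. DESeq2 likewise called 0 genes lower in nuclear Het, and 0 were lower at an unadjusted p under 0.05. In total RNA, 6 rose and 1 fell in Hom against WT, where 30.6% of 15051 genes rose and 31.0% fell. In total Het against WT 6 rose and 2 fell, where 30.9% rose and 30.3% fell. Between the genotypes of like Xist status, 1 gene rose and 4 fell in nuclear Hom against Het, where 21.4% of genes rose and 21.8% fell. In total Hom against Het 4 rose and 3 fell, where 32.9% rose and 34.1% fell. Without total Hom replicate 2, 5 of the 10 genes rose and 2 fell in total Hom against WT, and 4 rose and 3 fell against Het. The genes that rose against WT in both fractions were Cdkn1a, Eda2r and Sesn2 in Hom, and Ccng1, Trp53inp1, Eda2r and Sesn2 in Het. Opposite calls in the fractions were made for Ccng1 and Gdf15 in Hom and for Cdkn1a and Phlda3 in Het. The median log2 change of the 10 genes was 0.21 in nuclear Hom and 0.45 in nuclear Het against WT (0.015 and 0.024 over all genes), and 0.28 in total Hom and 0.18 in total Het (-0.0013 and -0.010 over all genes). It was -0.072 in nuclear and 0.026 in total Hom against Het, where all genes had medians of -0.0010 and 0.0062. The comparisons with WT share the WT libraries of their fraction.

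These within-fraction splits depend on scaling. With library totals alone, the share of called genes that were higher moved to 73.9% from 48.8% under TMM in nuclear Hom against WT, and the median of all genes shifted by 0.12. The corresponding shares were 75.9% and 50.9% in nuclear Het against WT (shift 0.18), 24.5% and 50.5% in total Het against WT (shift -0.18), 33.5% and 49.6% in nuclear Hom against Het, and 68.4% and 49.1% in total Hom against Het (shift 0.15). Total Het against WT then had 2 of the 10 genes higher and 3 lower, nuclear Hom against WT 8 and 0, nuclear Het against WT 10 and 0, nuclear Hom against Het 0 and 5, and total Hom against WT 4 and 2. In total Hom against Het, Trp53inp1 (0.17, adjusted p = 0.00324) and Bax (0.18, adjusted p = 0.00264) were then also called higher. Aen (-0.048, adjusted p = 0.597) was no longer called lower there.

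**Figure D1:**
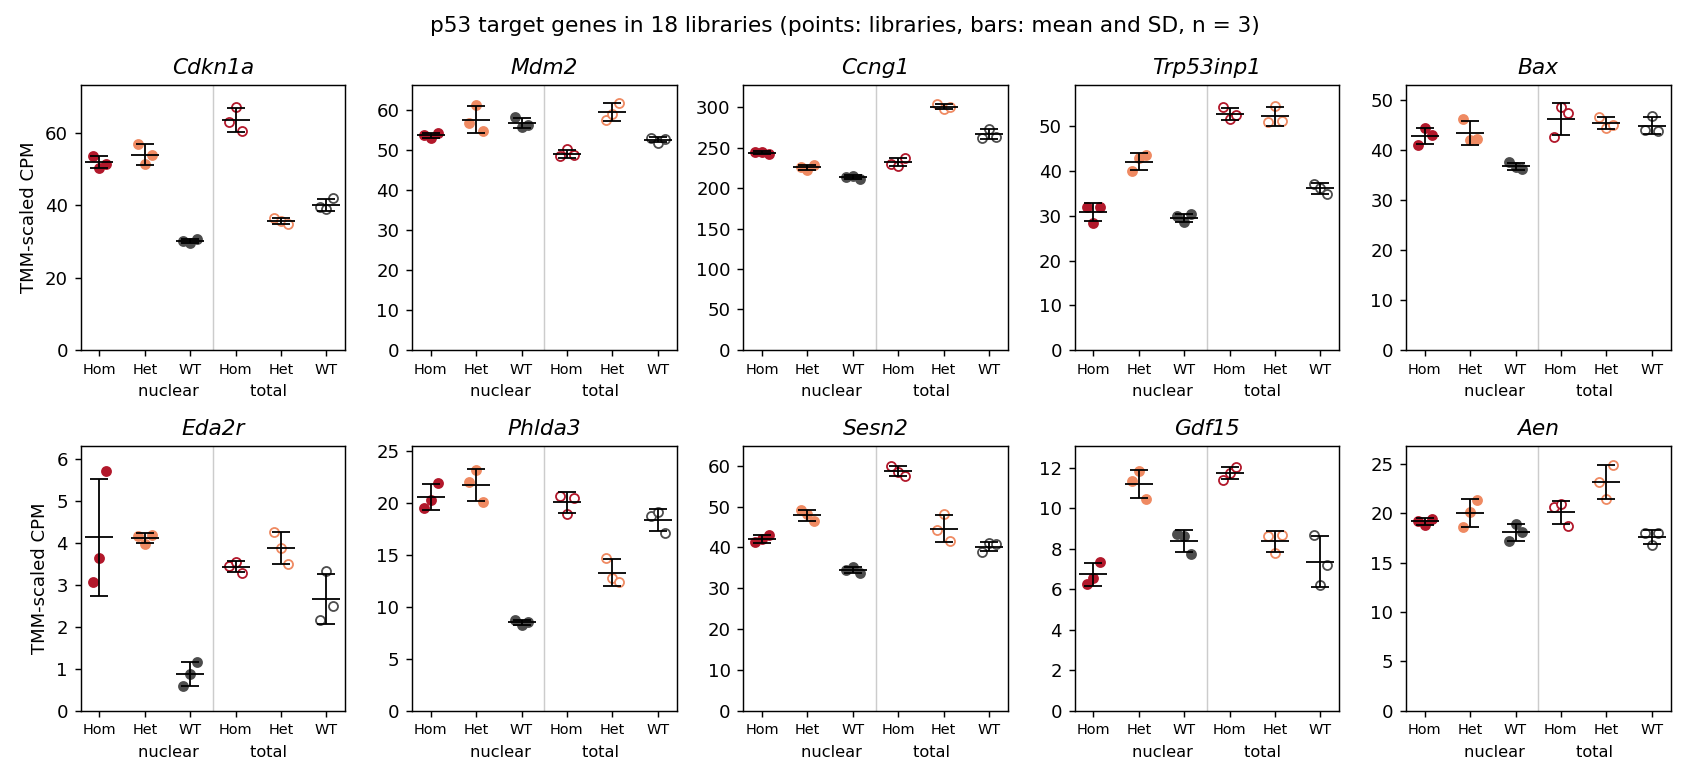
TMM-scaled CPM of the 10 p53 target genes in each of the 18 libraries (y axis, from 0), with filled points for nuclear and open points for total RNA and bars for the mean and SD of 3 libraries. Nuclear WT is the lowest of the 6 groups for Cdkn1a, Ccng1, Trp53inp1, Bax, Eda2r, Phlda3 and Sesn2.

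Cdkn1a, which encodes the cyclin-dependent kinase inhibitor p21 that halts the cell cycle, was higher in Hom than in WT libraries in both fractions. It had 53.6, 50.4 and 51.4 CPM in nuclear Hom, 56.8, 51.2 and 53.7 in nuclear Het and 29.98, 29.4 and 30.7 in libraries labelled nuclear WT. In total RNA it had 62.9, 67.1 and 60.5 CPM in Hom, 36.5, 35.6 and 34.7 in Het and 39.6, 38.8 and 41.96 in WT libraries. Nuclear Hom and Het overlapped and both lay above nuclear WT, whereas in total RNA Hom lay above WT and Het below it, with no overlap. The log2 change against WT was 0.79 ± 0.050 (SE, adjusted p = 9.14e-26) in nuclear Hom and 0.67 ± 0.045 (adjusted p = 1.60e-29) in total Hom. Het gave 0.85 ± 0.050 (adjusted p = 5.38e-28) in nuclear and -0.17 ± 0.051 (adjusted p = 0.00219) in total RNA. Between libraries of like Xist status, total Hom exceeded total Het by 0.84 ± 0.047 (adjusted p = 1.90e-36), while nuclear Hom and Het differed by -0.061 ± 0.045 (adjusted p = 0.285, 95% interval -0.15 to 0.028). With library totals alone this nuclear difference was called, at -0.12 (adjusted p = 0.0286), where the median of all genes was -0.056. The mean over fractions was 0.72 ± 0.033 in Hom and 0.34 ± 0.036 in Het, the widest Hom change of the 10 genes after Eda2r. The lowest groups, nuclear WT and total Het, were also those with the highest summed proximal tubule RNA, 49598 and 56187 CPM against 31353 to 33889 CPM in the other 4 groups, whose part in the result was not tested. Cdkn1a shares exon positions with a gene model on the opposite strand, and whether counting used strand is not given in the sources used here.

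Mdm2, the ubiquitin ligase that targets p53 for degradation, varied least of the 10 genes, its highest group mean being 1.21 times its lowest. It had 53.7, 53.02 and 54.2 CPM in nuclear Hom, 56.6, 61.2 and 54.7 in nuclear Het and 58.1, 55.7 and 56.2 in libraries labelled nuclear WT. Total RNA gave 48.3, 50.1 and 48.6 CPM in Hom, 57.5, 58.9 and 61.8 in Het and 52.9, 51.8 and 52.7 in WT libraries. Total Hom was the lowest group and total Het the highest, without overlap between them. Total Het rose against WT by 0.18 ± 0.043 (adjusted p = 1.23e-04) and total Hom fell below total Het, with -0.27 ± 0.043 (adjusted p = 1.21e-08). Total Hom against WT was -0.092 ± 0.043 (adjusted p = 0.0525), and -0.11 (adjusted p = 0.0489) without total Hom replicate 2. Nuclear Hom against Het was -0.10 ± 0.043 (adjusted p = 0.0456), a call lost with DESeq2 (adjusted p = 0.146), with RLE size factors (adjusted p = 0.0579), with no low-count filter (adjusted p = 0.07), without nuclear Hom replicate 1 (-0.10, adjusted p = 0.0694), replicate 2 (-0.099, adjusted p = 0.1) or replicate 3 (-0.11, adjusted p = 0.0511), or without nuclear Het replicate 2 (-0.055, adjusted p = 0.406). Over both fractions Mdm2 fell in Hom, with -0.090 ± 0.030 (adjusted p = 0.00683), and rose in Het by 0.099 ± 0.030 (adjusted p = 0.00397). Its rise in total Het was 0.00056 with library totals alone, where the median of all genes was -0.19, and its fall over fractions in Hom was -0.038 (adjusted p = 0.346).

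Ccng1, encoding cyclin G1, a target that acts on Mdm2 through a phosphatase, had the highest level per length of the 10, 70.8 RPKM (CPM per kilobase of the deposited gene length) over all libraries. It had 245, 244 and 242 CPM in nuclear Hom, 226, 223 and 228 in nuclear Het and 214, 215 and 211 in libraries labelled nuclear WT. In total RNA the values were 230, 228 and 237 CPM in Hom, 304, 298 and 300 in Het and 262, 273 and 264 in WT libraries. The 3 genotypes stood apart in each fraction, with nuclear Hom above WT and total Hom below it. Nuclear Hom rose by 0.19 ± 0.027 (adjusted p = 2.04e-09), whereas total Hom fell, with -0.20 ± 0.024 (adjusted p = 1.58e-12). Het rose in both fractions, by 0.082 ± 0.027 in nuclear and 0.18 ± 0.024 in total RNA, although with library totals alone the change in total Het was -0.0034 (adjusted p = 0.947). The mean over fractions in Hom was -0.0047 ± 0.018 (adjusted p = 0.841, 95% interval -0.041 to 0.031), and in Het it rose by 0.13 ± 0.018 (adjusted p = 1.02e-09). Hom against Het was 0.11 ± 0.027 (adjusted p = 3.77e-04) in nuclear RNA, or 0.056 (adjusted p = 0.0846) with library totals alone, and -0.37 ± 0.024 (adjusted p = 1.51e-30) in total RNA, and the fall in total Hom against WT had an adjusted p of 0.0644 with total WT replicate 1 as deposited.

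**Figure D2:**
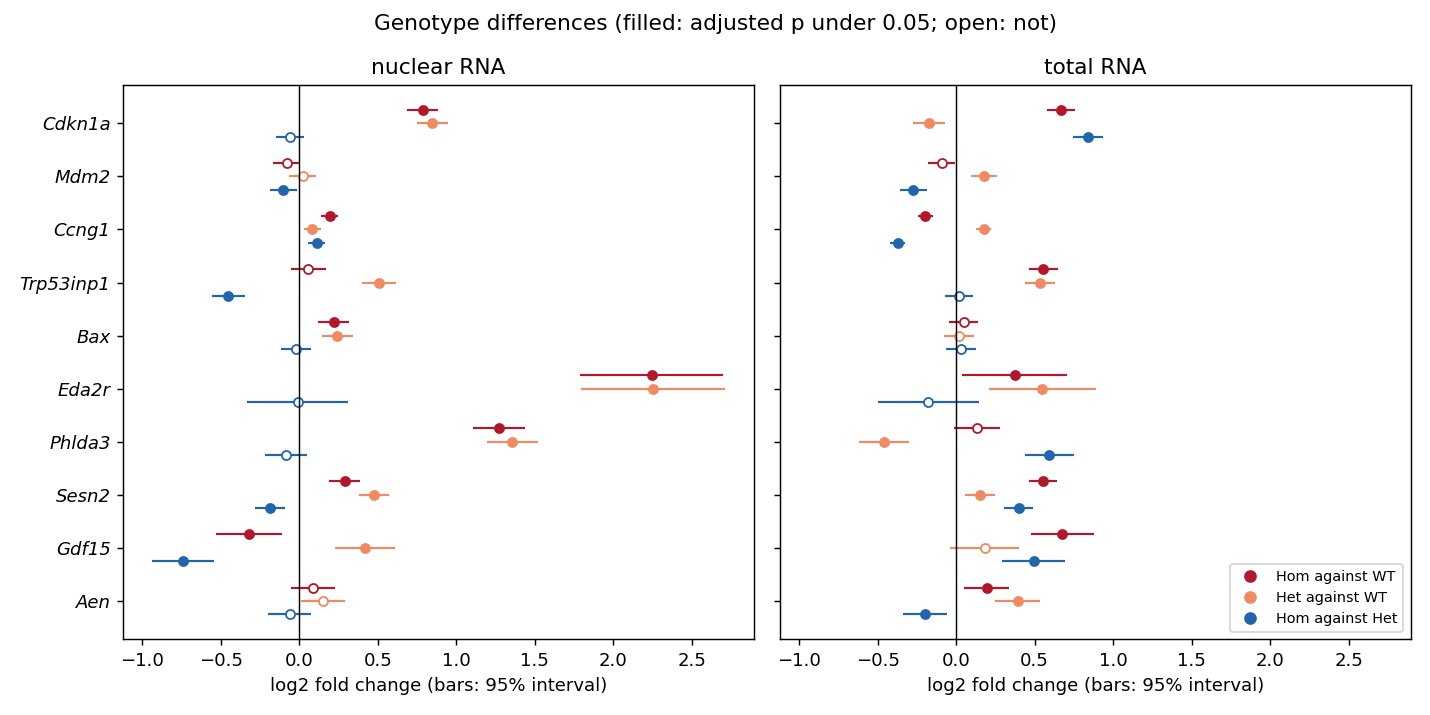
Log2 fold changes of the 10 genes between genotypes in nuclear (left) and total RNA (right), with 95% intervals and filled points where the BH adjusted p is under 0.05. Eda2r (2.24 in nuclear Hom) and Phlda3 (1.27) reach furthest in nuclear RNA, and Cdkn1a is higher in Hom than in Het in total RNA (0.84). With library totals alone Ccng1 and Sesn2 in total Het against WT change sign.

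Among the genes of the apoptotic branch, Eda2r and Phlda3 had their lowest group mean in nuclear WT. The same held for Bax and Trp53inp1, and for Cdkn1a, Ccng1 and Sesn2. Eda2r, an X-linked receptor of the tumour necrosis factor receptor family that binds ectodysplasin A2, was the rarest of the 10, at 0.546 RPKM over all libraries. It had 66, 83 and 109 counts, or 3.06, 3.63 and 5.69 CPM, in nuclear Hom, 4.17, 3.96 and 4.17 CPM in nuclear Het, and 13, 16 and 21 counts, or 0.592, 0.874 and 1.15 CPM, in libraries labelled nuclear WT. Total RNA gave 3.45, 3.54 and 3.29 CPM in Hom, 4.26, 3.88 and 3.49 in Het and 2.17, 3.33 and 2.49 in WT libraries. Nuclear WT did not overlap with any other group, while total Hom overlapped with total WT. The rise was 2.24 ± 0.23 (adjusted p = 5.82e-14) in nuclear Hom and 2.25 ± 0.23 (adjusted p = 3.92e-14) in nuclear Het. In total RNA it was 0.55 ± 0.17 (adjusted p = 0.00329) in Het and 0.37 ± 0.17 (adjusted p = 0.0481) in Hom. The Hom call in total RNA was lost without any 1 of 8 of the 9 total libraries, with 0.25 (adjusted p = 0.254) without total WT replicate 1, and was kept without total WT replicate 2 (0.56). It was also lost with DESeq2, with library totals alone, with no low-count filter and with replicate number as a block (0.37, adjusted p = 0.0515), and the Het call was 0.37 (adjusted p = 0.0510) with library totals alone. The mean over fractions was 1.30 ± 0.14 in Hom and 1.40 ± 0.14 in Het. The part of Xist status in the level of this X-linked gene was not tested.

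Phlda3, a p53-induced repressor of AKT signalling at the membrane, had 19.5, 20.3 and 21.99 CPM in nuclear Hom, 22.02, 23.2 and 20.1 in nuclear Het and 8.75, 8.24 and 8.57 in libraries labelled nuclear WT. Total RNA held 20.7, 18.9 and 20.5 CPM in Hom, 14.8, 12.7 and 12.4 in Het and 18.8, 19.2 and 17.2 in WT libraries. Nuclear WT and then total Het were the lowest groups, as for Cdkn1a, apart from each other and from the other 4 groups, which overlapped with their neighbours in level. Phlda3 rose by 1.27 ± 0.082 (adjusted p = 3.33e-25) in nuclear Hom and by 1.35 ± 0.082 (adjusted p = 3.32e-27) in nuclear Het. In total RNA it fell in Het, with -0.46 ± 0.081 (adjusted p = 2.17e-07), and Hom gave 0.13 ± 0.073 against WT (adjusted p = 0.105, 95% interval -0.011 to 0.28), or 0.18 (adjusted p = 0.0461) without total Hom replicate 2. Total Hom exceeded total Het by 0.59 ± 0.079 (adjusted p = 2.98e-11). The mean over fractions rose by 0.70 ± 0.055 in Hom and 0.45 ± 0.058 in Het.

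Trp53inp1, a stress protein that promotes p53 activity and autophagy, rose in Het in both fractions. It had 32.01, 28.4 and 32.02 CPM in nuclear Hom, 39.97, 42.8 and 43.6 in nuclear Het and 29.8, 28.6 and 30.3 in libraries labelled nuclear WT. Total RNA held 54.2, 51.6 and 52.6 CPM in Hom, 50.99, 54.6 and 51.1 in Het and 37.2, 36.3 and 34.8 in WT libraries. Nuclear Hom overlapped with nuclear WT below nuclear Het, whereas total Hom and Het overlapped above total WT. Het rose by 0.51 ± 0.054 (adjusted p = 4.24e-14) in nuclear and 0.53 ± 0.048 (adjusted p = 3.58e-20) in total RNA. Hom rose in total RNA by 0.55 ± 0.046 (adjusted p = 4.98e-22), and nuclear Hom against WT was 0.057 ± 0.056 (adjusted p = 0.408), or 0.18 (adjusted p = 0.00500) with library totals alone. Nuclear Hom was lower than nuclear Het, with -0.45 ± 0.053 (adjusted p = 4.97e-12). Over both fractions Trp53inp1 rose by 0.30 ± 0.036 in Hom and 0.52 ± 0.036 in Het.

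Bax, the pore-forming effector of mitochondrial apoptosis, differed from WT in nuclear RNA. Its values were 41.1, 44.5 and 43.05 CPM in nuclear Hom, 46.2, 42.00 and 42.3 in nuclear Het and 37.6, 36.6 and 36.3 in libraries labelled nuclear WT. In total RNA they were 42.8, 48.7 and 47.5 CPM in Hom, 46.7, 44.5 and 45.1 in Het and 44.1, 46.97 and 43.8 in WT libraries. The 5 groups other than nuclear WT overlapped with their neighbours in level. Nuclear Hom rose by 0.22 ± 0.050 (adjusted p = 0.0001) and nuclear Het by 0.24 ± 0.050 (adjusted p = 1.68e-05). Total RNA gave 0.050 ± 0.047 in Hom and 0.018 ± 0.048 in Het (adjusted p = 0.358 and 0.771, 95% intervals -0.042 to 0.14 and -0.078 to 0.11), and total Het was -0.16 (adjusted p = 0.00919) with library totals alone. Averaged over fractions it rose by 0.13 ± 0.034 (adjusted p = 5.14e-04) in Hom and 0.13 ± 0.035 (adjusted p = 0.00131) in Het. Bax shares exon positions with another gene model on the same strand. How reads from these positions were counted is not given in the sources used here.

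Aen, a p53-induced exonuclease that takes part in DNA fragmentation, had 19.2, 18.8 and 19.4 CPM in nuclear Hom, 18.6, 20.1 and 21.3 in nuclear Het and 17.2, 18.9 and 18.1 in libraries labelled nuclear WT. Total RNA gave 20.6, 20.9 and 18.7 CPM in Hom, 23.2, 21.4 and 24.9 in Het and 17.99, 16.8 and 18.03 in WT libraries. The nuclear groups overlapped, and total Het lay above the other 5 groups. Aen rose in total Het by 0.39 ± 0.073 (adjusted p = 8.11e-07) and in total Hom by 0.19 ± 0.072 (adjusted p = 0.0146), the Hom call being lost without total WT replicate 2 (0.16, adjusted p = 0.0742) or total Hom replicate 2 (0.16, adjusted p = 0.0638). Total Hom was lower than total Het, with -0.20 ± 0.071 (adjusted p = 0.00995), a call lost without total Het replicate 3 (-0.15, adjusted p = 0.0953) or total Hom replicate 3 (-0.15, adjusted p = 0.0896). Scaling by library totals alone gave 0.17 (adjusted p = 0.0577) for total Hom against WT and -0.048 (adjusted p = 0.597) against Het. Nuclear Hom gave 0.088 ± 0.070 and nuclear Het 0.15 ± 0.071 against WT (adjusted p = 0.291 and 0.0566), and nuclear Het passed the threshold without nuclear WT replicate 2 (0.18, adjusted p = 0.0379) or nuclear Het replicate 1 (0.21, adjusted p = 0.0175). With library totals alone nuclear Hom (0.21, adjusted p = 0.00778) and nuclear Het (0.33, adjusted p = 3.4e-05) were called. The medians of all genes were then 0.14 and 0.20. Over both fractions Aen rose by 0.14 ± 0.050 (adjusted p = 0.0121) in Hom and 0.27 ± 0.050 (adjusted p = 1.55e-06) in Het.

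The remaining 2 genes act in stress metabolism and secretion. Sesn2, which encodes sestrin 2, an inhibitor of mTORC1 signalling and an antioxidant protein, was higher than WT in both mutant genotypes and both fractions. It had 41.2, 42.1 and 43.1 CPM in nuclear Hom, 49.1, 48.1 and 46.4 in nuclear Het and 34.4, 35.3 and 33.8 in libraries labelled nuclear WT. Its total RNA values were 59.9, 58.5 and 57.6 CPM in Hom, 44.2, 48.1 and 41.5 in Het and 38.9, 40.98 and 40.7 in WT libraries. Nuclear Het was above nuclear Hom, while total Hom was above all other groups. Sesn2 rose by 0.29 ± 0.049 (adjusted p = 4.51e-07) in nuclear Hom, 0.48 ± 0.049 (adjusted p = 1.12e-14) in nuclear Het and 0.55 ± 0.045 (adjusted p = 1.26e-22) in total Hom. Its rise in total Het was 0.15 ± 0.049 (adjusted p = 0.00430), but 0.096 (adjusted p = 0.125) without total Het replicate 2 and -0.026 (adjusted p = 0.711) with library totals alone. Hom against Het was -0.19 ± 0.047 (adjusted p = 5.35e-04) in nuclear and 0.40 ± 0.046 (adjusted p = 3.87e-14) in total RNA, so the genotypes of like Xist status ordered oppositely in the fractions. Averaged, the change was 0.42 ± 0.034 in Hom and 0.31 ± 0.035 in Het.

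Gdf15, a secreted stress cytokine of the TGF-beta family, ordered oppositely in the same way. It had 6.25, 6.56 and 7.37 CPM in nuclear Hom, 11.3, 11.8 and 10.4 in nuclear Het and 8.75, 8.63 and 7.74 in libraries labelled nuclear WT. In total RNA it had 11.4, 11.8 and 12.04 CPM in Hom, 8.63, 7.76 and 8.67 in Het and 8.67, 6.20 and 7.21 in WT libraries. Nuclear Hom was below nuclear WT and nuclear Het above it, whereas total Hom was above total Het and total WT, which overlapped. Gdf15 fell in nuclear Hom, with -0.32 ± 0.11 (adjusted p = 0.00690), and rose in nuclear Het by 0.42 ± 0.096 (adjusted p = 9.29e-05) and in total Hom by 0.68 ± 0.10 (adjusted p = 2.30e-09). Total Het gave 0.18 ± 0.11 (adjusted p = 0.146), or 0.31 (adjusted p = 0.0226) without total WT replicate 1. Hom against Het was -0.74 ± 0.099 (adjusted p = 5.90e-10) in nuclear and 0.50 ± 0.10 (adjusted p = 7.94e-06) in total RNA. The fall in nuclear Hom was -0.20 (adjusted p = 0.0927) with library totals alone. The mean over fractions in Hom, 0.17 ± 0.074 (adjusted p = 0.0365), lost its call with DESeq2 (0.18, adjusted p = 0.0633) and without 1 library in 5 cases, the lowest value being 0.12 (adjusted p = 0.178) without total WT replicate 2. The others were 0.14 (adjusted p = 0.111) without nuclear Hom replicate 3, 0.16 (adjusted p = 0.0637) without total Hom replicate 3, 0.15 (adjusted p = 0.0966) without nuclear WT replicate 3 and 0.17 (adjusted p = 0.0663) without total WT replicate 3. In Het the mean rose by 0.30 ± 0.075 (adjusted p = 4.24e-04).

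**Figure D3:**
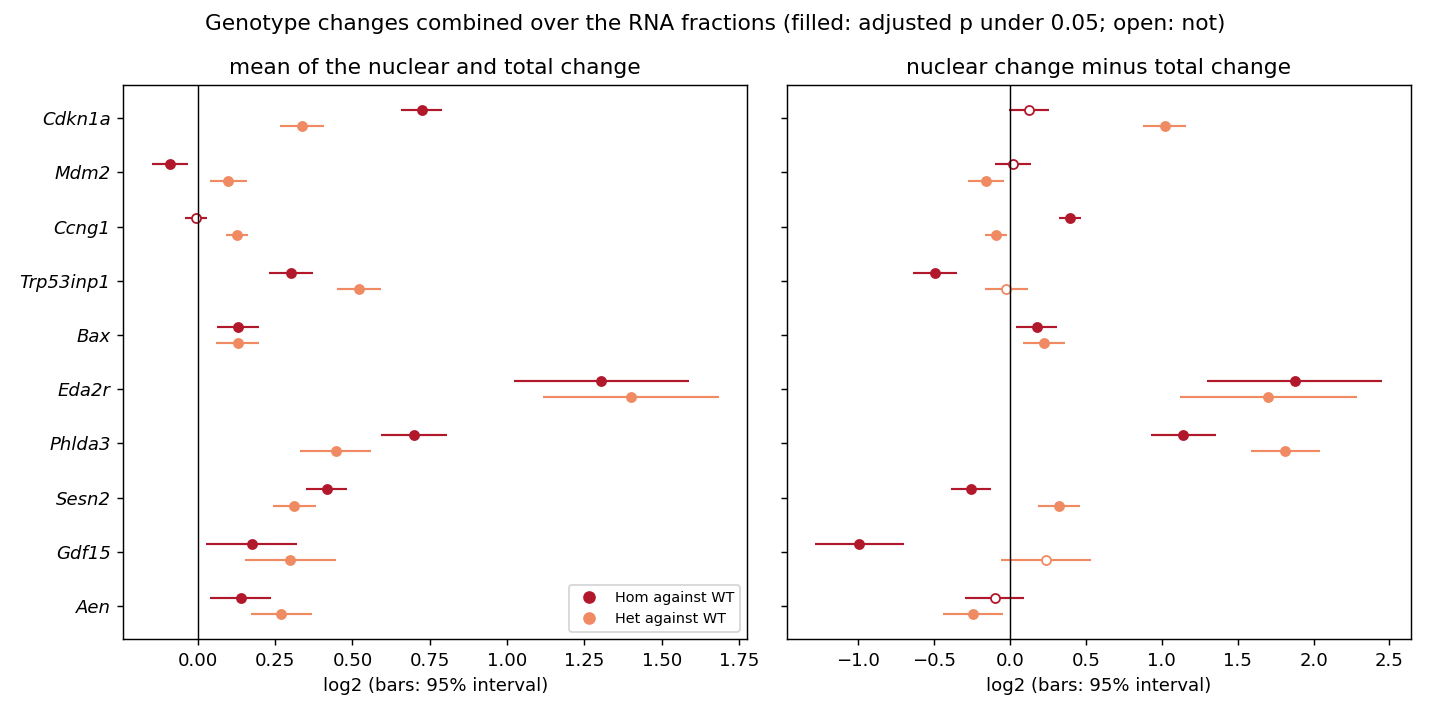
Mean of the nuclear and total log2 change (left) and nuclear minus total log2 change (right) for Hom and Het against WT, with 95% intervals and filled points where the BH adjusted p is under 0.05. In the mean, 8 genes in Hom and 10 in Het lie above 0 among the calls; in the difference, Phlda3 (1.14 in Hom, 1.81 in Het) and Eda2r (1.87 and 1.70) lie furthest to the right. With library totals alone the Het differences of Mdm2, Ccng1 and Aen turn positive.

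Whether the genotype change differed between the fractions was tested as the nuclear minus the total change. Of the 10 genes, 4 had a more positive nuclear than total change in Hom (Ccng1, Bax, Eda2r and Phlda3) and 3 a more negative one (Trp53inp1, Sesn2 and Gdf15), where 28.4% and 27.7% of all genes were called in those directions, so that the genes' count is near that of all genes. In Het 5 were more positive (Cdkn1a, Bax, Eda2r, Phlda3 and Sesn2) and 3 more negative (Mdm2, Ccng1 and Aen), where 37.8% and 32.9% of all genes were called, again near the genes' own shares. The widest differences in Het were 1.81 ± 0.11 (adjusted p = 3.04e-32) for Phlda3, 1.70 ± 0.29 (adjusted p = 1.44e-07) for Eda2r and 1.02 ± 0.071 (adjusted p = 3.05e-28) for Cdkn1a. In Hom they were 1.87 ± 0.29 (adjusted p = 1.23e-08) for Eda2r, 1.14 ± 0.11 (adjusted p = 3.41e-18) for Phlda3 and -0.99 ± 0.15 (adjusted p = 2.44e-09) for Gdf15. Xist status does not balance in this difference and cannot be told apart from it. With library totals alone the share of called genes that were higher moved from 50.7% under TMM to 70.4% in Hom (shift of the median of all genes 0.14) and from 53.4% to 78.7% in Het (shift 0.36), and 9 of the 10 genes were then more positive and 0 more negative in Het; Sesn2 in Hom was -0.11 (adjusted p = 0.187). The medians of the 10 genes were 0.070 in Hom and 0.23 in Het, against 0.021 and 0.074 over all genes. Each of the 3 negative Het calls was lost without some single library. Without total Het replicate 3, 1 was left, Mdm2 being -0.13 (adjusted p = 0.0722) and Aen -0.19 (adjusted p = 0.101), and Ccng1 was -0.081 (adjusted p = 0.0525) without total Het replicate 1. Mdm2 was also lost without nuclear Het replicate 3 (-0.13, adjusted p = 0.0658), and Aen without nuclear Het replicate 1 (-0.19, adjusted p = 0.0922), nuclear WT replicate 2 (-0.21, adjusted p = 0.0630) or total WT replicate 2 (-0.21, adjusted p = 0.0616). The Hom difference of Bax, 0.17 ± 0.069 (adjusted p = 0.0234), was lost without total Hom replicate 1 (0.12, adjusted p = 0.150), nuclear Hom replicate 2 (0.14, adjusted p = 0.0865), total WT replicate 2 (0.14, adjusted p = 0.0909) or nuclear WT replicate 3 (0.16, adjusted p = 0.0517), and with DESeq2 (0.17, adjusted p = 0.0598). Without total Hom replicate 2 the Hom difference of Cdkn1a, 0.12 ± 0.067 with all libraries, passed the threshold (0.16, adjusted p = 0.0447), and without total WT replicate 2 the Het difference of Gdf15 did (0.34, adjusted p = 0.0426). The Hom difference of Cdkn1a also passed it with library totals alone (0.27, adjusted p = 8.37e-04).

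Within a genotype, nuclear RNA was set against total RNA. In Hom, 2 of the 10 genes were higher in nuclear RNA (Mdm2 and Ccng1) and 5 lower (Cdkn1a, Trp53inp1, Bax, Sesn2 and Gdf15), where 30.5% of all genes were higher and 29.8% lower. In Het, 3 were higher (Cdkn1a, Phlda3 and Gdf15) and 3 lower (Ccng1, Trp53inp1 and Aen), where 33.4% were higher and 30.2% lower. In WT, Mdm2 alone was higher and 7 were lower, all but Mdm2, Gdf15 and Aen, where 30.9% were higher and 30.8% lower. Trp53inp1 was lower in nuclear RNA in each genotype, with log2 values of -0.78 ± 0.049 in Hom, -0.31 ± 0.048 in Het and -0.29 ± 0.054 in WT, although the Het value was -0.11 (adjusted p = 0.0517) with library totals alone. Phlda3 was 0.037 ± 0.069 in Hom, 0.71 ± 0.077 in Het and -1.10 ± 0.084 in WT, and Cdkn1a was -0.30 ± 0.043, 0.60 ± 0.049 and -0.42 ± 0.052 in the same order. Of 5 nuclear-retained RNAs, Xist, Malat1 and Neat1 among them, 3 were higher and 0 lower in nuclear than in total Hom. The counts were 5 and 0 in Het and 0 and 4 in WT, and the medians 0.072, 1.02 and -0.42 in Hom, Het and WT. Xist is part of these counts and medians, but its call follows the Xist status of the libraries and is no check of the fraction. Malat1 and Neat1 were also lower in the libraries labelled nuclear WT, which thus had no excess of these RNAs. In each genotype the fractions differ in Xist status, so these ratios compare libraries and not the place of the RNA alone. With library totals alone, 77.3% rather than 52.5% of called genes were higher in Het (shift 0.20) and 25.4% rather than 50.1% in WT (shift -0.16), and Mdm2 in WT was -0.045 (adjusted p = 0.429) rather than 0.11 ± 0.042. Of the 10 genes 6 were then higher and 1 lower in Het, 0 and 7 in WT, and 1 and 5 in Hom, Aen in Het (-0.011, adjusted p = 0.898) and Ccng1 in Hom (0.059, adjusted p = 0.138) being lost. The medians of the 10 genes were -0.089 in Hom, 0.016 in Het and -0.29 in WT, against 0.0057, 0.038 and -0.013 over all genes. Of these calls Mdm2 in WT was lost without nuclear WT replicate 1 (0.094, adjusted p = 0.0868) or total WT replicate 2 (0.10, adjusted p = 0.0520), and Ccng1 in Hom without total Hom replicate 2 (0.056, adjusted p = 0.0843). Bax in Hom was lost without nuclear Hom replicates 1 or 3 or total Hom replicates 2 or 3 (-0.080, -0.12, -0.078 and -0.093; adjusted p = 0.188, 0.0507, 0.203 and 0.133) and with DESeq2 (-0.12, adjusted p = 0.0655), and Aen in Het without nuclear Het replicate 1 (-0.16, adjusted p = 0.0646) or total Het replicate 3 (-0.16, adjusted p = 0.0723). Calls were gained for Eda2r in Hom without nuclear Hom replicate 1 (0.42, adjusted p = 0.0279), for Sesn2 in Het without nuclear Het replicate 3 (0.12, adjusted p = 0.035) or total Het replicate 2 (0.16, adjusted p = 0.00566), and for Gdf15 in WT without total WT replicate 1 (0.32, adjusted p = 0.0168).

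Levels per length set the 10 genes in an order that spanned more than their changes. Averaged over the 18 libraries, Ccng1 was at 70.8 RPKM, Bax at 49.9, Cdkn1a at 22.5, Mdm2 at 17.7, Sesn2 at 16.8 and Phlda3 at 11.7. Aen followed at 7.62 RPKM, Trp53inp1 at 7.48, Gdf15 at 4.84 and Eda2r at 0.546. The highest group mean was 4.73 times the lowest for Eda2r, 2.56 times for Phlda3 and 2.11 times for Cdkn1a, and under 2 times for the other 7 genes.

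The p53 gene itself, Trp53, had more RNA in both mutant genotypes over both fractions. It averaged 34.9 ± 1.17 CPM in nuclear Hom, 37.7 ± 0.446 in nuclear Het and 32.8 ± 1.65 in libraries labelled nuclear WT (SD, n = 3 each). Total RNA averaged 37.5 ± 0.270 CPM in Hom, 39.9 ± 0.970 in Het and 31.3 ± 0.858 in WT libraries. Trp53 rose in the mean over fractions by 0.18 ± 0.037 (adjusted p = 1.25e-05) in Hom and 0.28 ± 0.037 (adjusted p = 6.18e-11) in Het, while nuclear Hom alone gave 0.096 ± 0.053 (adjusted p = 0.118). RNA level says nothing of p53 protein, which is controlled mainly by its stability.

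Of 18 tested genes that regulate p53 or belong to its family, 8 rose and 2 fell in Hom over both fractions, and 9 rose and 2 fell in Het, with medians of 0.084 and 0.099 on the log2 scale, where all genes had 0.00048 and 0.0052. Of all genes 28.0% rose and 30.6% fell in Hom and 22.3% and 20.9% in Het. Rpl5 and Rpl11, ribosomal proteins that bind and inhibit Mdm2, rose in Hom by 0.50 ± 0.016 (adjusted p = 2.54e-64) and 0.49 ± 0.017 (adjusted p = 5.39e-50). Rpl5 averaged 467 CPM in nuclear Hom, 495 in nuclear Het and 342 in nuclear WT, and 659 in total Hom, 368 in total Het and 453 in libraries labelled total WT. Nuclear WT and total Het were thus the lowest groups for Rpl5, as for Cdkn1a. Mdm4, the Mdm2 partner that inhibits p53, rose by 0.25 ± 0.031 (adjusted p = 7.19e-13), the p53 relative Trp63 by 0.55 ± 0.085 (adjusted p = 8.48e-09) and the ubiquitin ligase Rchy1 by 0.16 ± 0.032 (adjusted p = 3.73e-06).

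In a wider list of 49 other p53 targets, 24 rose and 10 fell over both fractions in Hom, and 17 and 7 in Het; of all genes, 28.0% rose and 30.6% fell in Hom and 22.3% and 20.9% in Het. Its median log2 change was 0.11 in Hom and 0.091 in Het, and with library totals alone 25 rose and 6 fell in Hom. In nuclear RNA, 24 rose and 11 fell in Hom against WT (26.5% and 27.8% of all genes), 26 and 14 in Het against WT (32.8% and 31.7%), and 10 and 14 in Hom against Het (21.4% and 21.8%). In total RNA, 27 rose and 7 fell in Hom against WT (30.6% and 31.0% of all genes), 12 and 14 in Het against WT (30.9% and 30.3%), and 26 and 14 in Hom against Het (32.9% and 34.1%). Library totals alone gave 31 and 7, 32 and 9, and 9 and 18 in nuclear RNA and 24 and 7, 9 and 21, and 29 and 7 in total RNA, in the same order.

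Among 14 targets of the cell cycle and growth, 6 rose and 2 fell over both fractions in Het, where 22.3% of all genes rose and 20.9% fell. In Hom 8 rose and 3 fell, where 28.0% of all genes rose and 30.6% fell. Plk2, a kinase induced by stress, rose by 0.55 ± 0.050 (adjusted p = 1.29e-19), Btg2, an antiproliferative factor, by 0.36 ± 0.034 (adjusted p = 8.19e-19), Sfn, the 14-3-3 sigma protein that arrests cells in G2, by 0.87 ± 0.085 (adjusted p = 9.91e-18) and Rprm, another G2 arrest factor, by 0.99 ± 0.12 (adjusted p = 1.97e-13). Plk3, a stress-responsive kinase, fell by the most, with -1.20 ± 0.069 (adjusted p = 2.33e-35): it averaged 7.39 ± 1.08 CPM in nuclear Hom, 10.1 ± 1.18 in nuclear Het and 48.01 ± 2.16 in libraries labelled nuclear WT, against 7.80, 6.28 and 6.28 in total Hom, Het and WT (SD, n = 3). Its high level was seen in nuclear WT alone, and total Hom was 0.32 ± 0.11 (adjusted p = 0.0104) against total WT. Ei24 fell, with -0.13 ± 0.021 (adjusted p = 2.65e-08).

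Of 13 apoptosis targets, 7 rose and 1 fell in Het over both fractions, against 22.3% and 20.9% of all genes. In Hom 7 rose and 2 fell, against 28.0% and 30.6% of all genes. Fas, the death receptor, rose by 0.46 ± 0.060 (adjusted p = 2.09e-11), Bbc3, the BH3-only protein PUMA, by 0.53 ± 0.11 (adjusted p = 8.78e-06), Trp53i11 by 0.38 ± 0.041 (adjusted p = 1.68e-15), Siva1 by 0.31 ± 0.065 (adjusted p = 1.43e-05) and Trp53i13 by 0.27 ± 0.061 (adjusted p = 4.94e-05). Pmaip1, the BH3-only protein NOXA, fell, with -0.38 ± 0.055 (adjusted p = 1.21e-09), and was lower than WT in nuclear and in total RNA (-0.22 and -0.53).

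Of 10 DNA repair targets, 0 rose and 1 fell in Het over both fractions, against 22.3% and 20.9% of all genes. In Hom 4 rose and 2 fell, against 28.0% and 30.6% of all genes. Ddb2, the damage sensor of nucleotide excision repair, rose by 0.54 ± 0.093 (adjusted p = 1.92e-07), with 0.91 in total RNA (adjusted p = 4.33e-10) and 0.17 in nuclear RNA (adjusted p = 0.289). Pold1, Ercc5 and Xpc rose by 0.36 ± 0.076, 0.15 ± 0.044 and 0.12 ± 0.026, and Rev3l and Rrm2b fell, with -0.12 ± 0.038 and -0.086 ± 0.035.

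Of 12 metabolic and redox targets, 4 rose and 3 fell in Het over both fractions, against 22.3% and 20.9% of all genes. In Hom 5 rose and 3 fell, against 28.0% and 30.6% of all genes. Ddit4, an inhibitor of mTORC1 like Sesn2, rose by 0.63 ± 0.034 (adjusted p = 4.76e-38), averaging 97.1 ± 1.81 CPM in total Hom, 29.8 in total Het and 41.9 in libraries labelled total WT. Ephx1, Fdxr and Dcxr rose by 0.29 ± 0.023, 0.30 ± 0.054 and 0.21 ± 0.021. Aldh4a1, a mitochondrial enzyme of proline breakdown, fell, with -0.45 ± 0.014 (adjusted p = 8.62e-64), and Pank1, which starts coenzyme A synthesis, with -0.38 ± 0.018 (adjusted p = 4.15e-44). Pank1 stood at 199, 141 and 518 CPM in nuclear Hom, Het and WT and at 206, 559 and 134 in total Hom, Het and WT, so that nuclear WT and total Het were its highest groups.

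The levels of the 10 genes followed each other only in part across the 18 libraries. Pearson's r of log2 CPM was 0.86 between Cdkn1a and Phlda3, 0.83 between Cdkn1a and Sesn2, 0.81 between Eda2r and Phlda3 and 0.78 between Trp53inp1 and Sesn2. It was -0.57 between Cdkn1a and Mdm2. The 18 libraries fall into 6 groups that share preparation and scaling, so these values are a description.

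**Figure D4:**
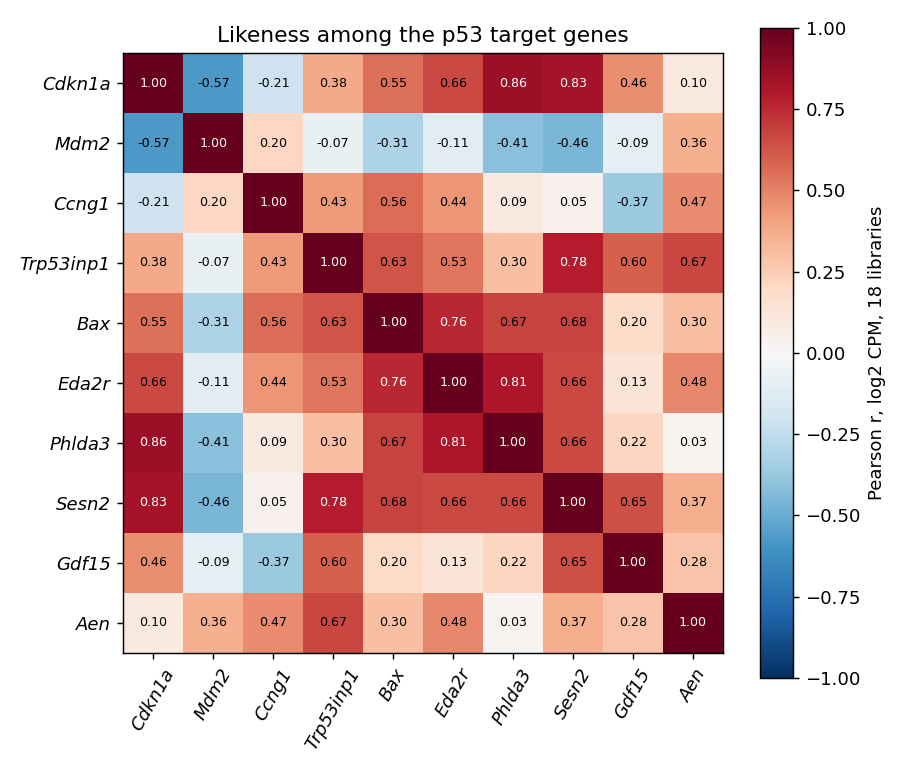
Pearson's r between the log2 CPM of each pair of the 10 genes over 18 libraries, with red for positive and blue for negative values. Cdkn1a, Phlda3 and Sesn2 have r between 0.66 and 0.86 with each other, and Mdm2 is negative with 7 of the other 9 genes.

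Over genes averaging 5 CPM or more, those most like Cdkn1a over the 18 libraries by Pearson's r of log2 CPM included the ribosomal protein genes Rps19 (r = 0.98), Rps16 (0.97), Rps4x (0.97) and Rps3a1 (0.96). Rps19 averaged 303 CPM in nuclear Hom, 325 in nuclear Het and 212 in nuclear WT, and 387 in total Hom, 233 in total Het and 272 in libraries labelled total WT. For Phlda3 the nearest were Ier5 (0.97) and the complement gene C3 (0.96), the second at 164 CPM in nuclear Hom, 345 in nuclear Het and 17.8 in nuclear WT, and at 224 in total Hom, 85.3 in total Het and 187 in libraries labelled total WT. The nearest to Eda2r were Cftr (0.93) and Hp (0.89), to Ccng1 Dll4 (0.92) and Khdrbs3 (0.89), and to Trp53inp1 Zfp512b and Adgre5 (0.96 each). Dhcr7 (0.88) was among those most like Mdm2. Bax was most like Zfp763 (0.89) and Tnks1bp1 (0.87), Sesn2 most like 2410006H16Rik (0.95) and D930048N14Rik (0.94), Gdf15 most like H2-DMb1 (0.91) and Clca3a2 (0.90), and Aen most like Sectm1a (0.88) and Rpl36al (0.83).

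The summed levels of markers of kidney cell types also differed between the groups. The summed level of 10 proximal tubule genes was 33541 CPM in nuclear Hom, 31353 in nuclear Het and 49598 in libraries labelled nuclear WT, and 32666 in total Hom, 56187 in total Het and 33889 in libraries labelled total WT. The 12 tubular injury genes summed to 2270, 2961 and 1687 CPM in nuclear Hom, Het and WT and to 2432, 1439 and 2534 CPM in total Hom, Het and WT. By these sums nuclear WT and total Het, the lowest groups for Cdkn1a and Phlda3, had the most proximal tubule and the least injury RNA. Ccng1 and Mdm2 were instead highest in total Het, at 301 and 59.4 CPM. Total Hom and total WT lay close to each other in both sums, while Cdkn1a averaged 63.5 CPM in total Hom and 40.1 in total WT. Gpx3 and Kap lead the proximal tubule sum, averaging 18063 and 8051 CPM over all libraries, and Spp1 leads the injury sum at 1531 CPM. By sum, injury RNA was lower in total Hom than in total WT. Yet 9 of these 12 genes rose and 3 fell there (30.6% and 31.0% of all genes), with a median log2 change of 0.55. The 10 immune genes, led by Cd74, summed to 630, 1823 and 736 CPM in nuclear Hom, Het and WT and to 1185, 1216 and 950 CPM in total Hom, Het and WT, and the 10 podocyte genes to 500, 555 and 485 CPM and to 611, 398 and 606 CPM in the same order. No gene of these lists was at 0 throughout a group. The part of cell makeup in the changes of the p53 targets was not tested. Of the 16 targets of ATF4, the stress factor that also drives Sesn2 and Gdf15, 8 rose and 4 fell in nuclear Hom and 10 rose and 2 fell in nuclear Het against WT, where 26.5% and 27.8%, and 32.8% and 31.7%, of all genes did. In total RNA 3 rose and 10 fell in Hom and 0 rose and 9 fell in Het, where 30.6% and 31.0%, and 30.9% and 30.3%, of all genes did.

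**Figure D5:**
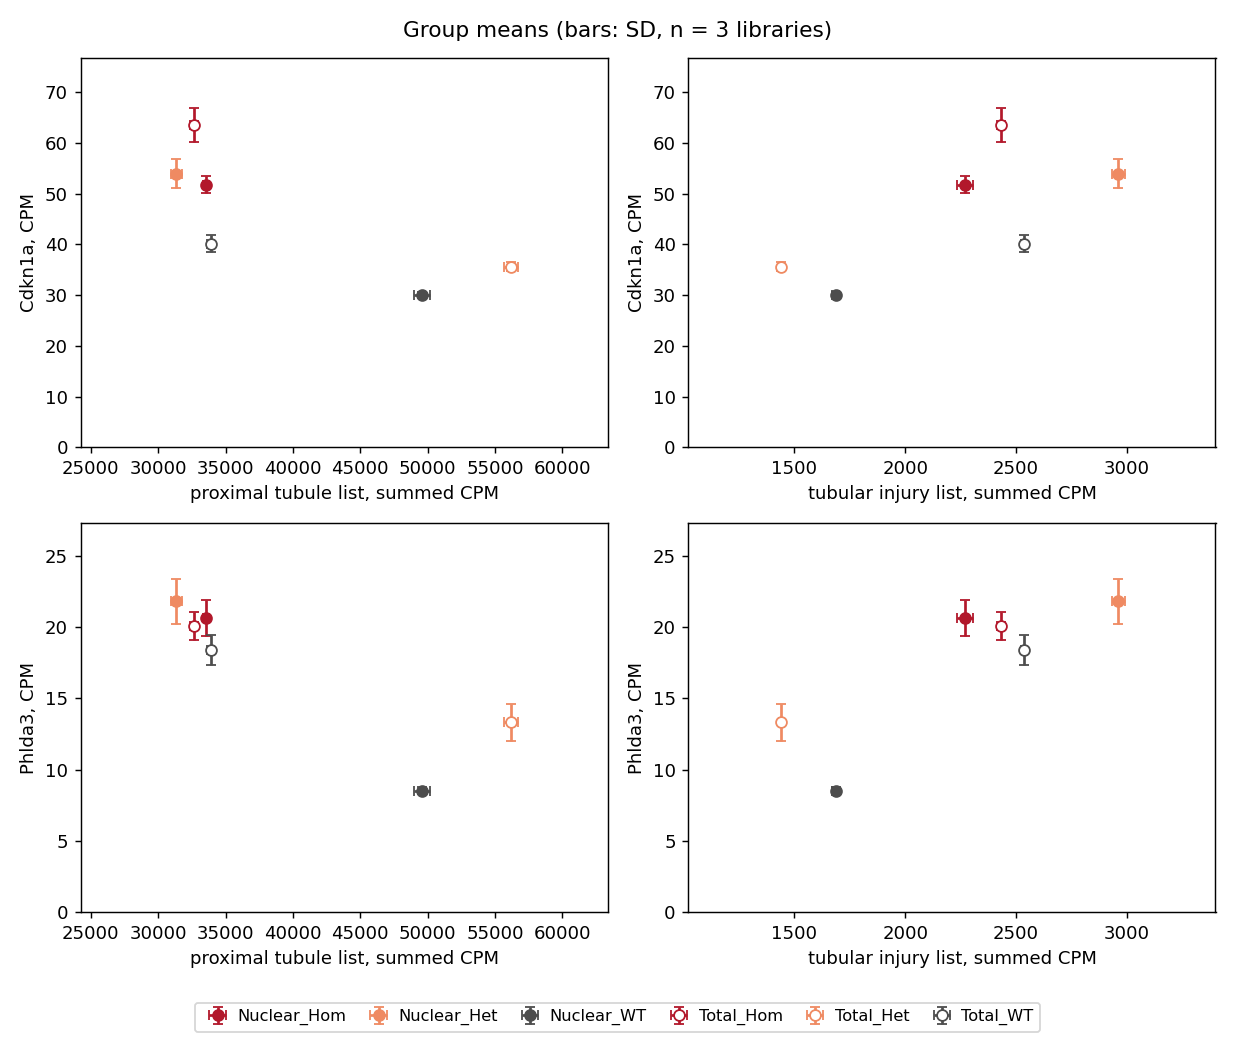
Group means of Cdkn1a (top) and Phlda3 (bottom) in CPM on the y axis, against the summed CPM of the proximal tubule (left) and tubular injury lists (right), with bars for the SD of 3 libraries. Nuclear WT and total Het lie at 49598 and 56187 CPM of proximal tubule RNA and have the lowest levels of both genes; the part of cell makeup was not tested.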

How the data were processed

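Raw read counts per gene were deposited by the authors as 1 table of 24602 genes and 18 libraries, with a gene length column whose per-kilobase use here is the RPKM-like level. Per the submitters' processing notes, CASAVA, STAR 2.5.2b, featureCounts, DESeq2 and the mm9 build were used, in roles not stated there. Which annotation and strand setting featureCounts had is not given in the sources used here. The deposited count of total WT replicate 1, 200140709, was at least the sum of the 9 nuclear columns for every gene, and subtraction left 19034520.

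Genes were filtered with filterByExpr, scaled by TMM and tested with edgeR 4.0.16 (R 4.3.3; robust glmQLFit, glmQLFTest, BH adjustment over all genes of the fit, threshold 0.05). Genotypes were compared within each fraction over its 9 libraries. Means and differences of the fraction changes, and nuclear against total RNA, came from 1 fit over the 18 libraries. The fits gave biological coefficients of variation of 3.05% (nuclear), 3.90% (total) and 3.54% (all libraries). Intervals are 95% intervals of the fitted log2 change. Counts and tables were handled with Python 3.11.15, pandas 2.3.3 and numpy 2.4.6, and plots were drawn with matplotlib 3.10.9. The tests were checked on simulated counts.

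The 10 genes, the other lists and the tests were chosen with earlier results of these data known. All 10 genes were named in every comparison, and up to 6 of each other p53 list were named by the smallest p in Hom against WT over both fractions. For likeness, the rule took 5 genes for Cdkn1a and 2 for each other gene, on log2(CPM + 0.5), and some of these are not reported here. The alternatives tried were leaving out each library, replicate number as a block, keeping low counts, scaling by RLE or by library totals alone, and DESeq2 1.42.0 as the test. Total WT replicate 1 as deposited and removal of Rn45s were added after seeing the data. Coordinates are from the RefSeq promoter table on GRCm38.p6 and exon overlaps from GENCODE on GRCm38, not from the authors' build.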

Additional observations from a re-analysis of the deposited data

Results flagged for a closer look

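For 7 of the 10 genes in Hom and 8 in Het, the genotype change differed between nuclear and total RNA by the test of the difference itself (edgeR quasi-likelihood, BH adjusted p under 0.05). Over all genes, 28.4% were called more positive and 27.7% more negative in Hom, and 37.8% and 32.9% in Het, so these counts are near the share of all genes. In Hom the nuclear minus total change was 0.39 ± 0.036 (adjusted p = 3.52e-19) for Ccng1, 0.17 ± 0.069 (adjusted p = 0.0234) for Bax, 1.87 ± 0.29 (adjusted p = 1.23e-08) for Eda2r and 1.14 ± 0.11 (adjusted p = 3.41e-18) for Phlda3. It was negative for Trp53inp1, -0.49 ± 0.073 (adjusted p = 1.85e-09), for Sesn2, -0.26 ± 0.067 (adjusted p = 5.19e-04), and for Gdf15, -0.99 ± 0.15 (adjusted p = 2.44e-09).

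In Het the difference was 1.02 ± 0.071 (adjusted p = 3.05e-28) for Cdkn1a, 0.22 ± 0.070 (adjusted p = 0.00297) for Bax, 1.70 ± 0.29 (adjusted p = 1.44e-07) for Eda2r, 1.81 ± 0.11 (adjusted p = 3.04e-32) for Phlda3 and 0.32 ± 0.069 (adjusted p = 1.75e-05) for Sesn2. It was negative for Mdm2, -0.16 ± 0.060 (adjusted p = 0.0148), for Ccng1, -0.094 ± 0.036 (adjusted p = 0.0165), and for Aen, -0.24 ± 0.10 (adjusted p = 0.0226), and these 3 turned positive with library totals alone. Malat1 and Neat1 went against the WT fraction labels, on whose truth the sign of the WT term rests. The fractions differ in Xist status within each genotype, and that difference and the fraction cannot be told apart. Every such difference rests on the same 18 libraries, so the values are not independent of each other.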

How the results depend on the processing

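Of 130 results for single genes, 97 were called, and 73 of these kept their call and direction under every alternative run, while 24 lost it under at least 1 and 6 reversed under at least 1. Of 26 counts of calls, 11 moved by over 1.5 times under at least 1 alternative; the cause was not tested. Replicate numbers did not clearly pair the libraries within a fraction. There, deviations of same-numbered libraries correlated between -0.209 and 0.141 over 18 pairs, of which 4 were over 0.1, and 5 of 18 libraries correlated best with their own number. Over all 45 same-numbered pairs, within or between fractions, the range was -0.209 to 0.431, with a median of 0.005 and 10 over 0.1. With replicate number as a block, 1 call was lost, Eda2r in total Hom against WT (0.3722, adjusted p = 0.0515). DESeq2 turned Eda2r in nuclear Hom against Het (0.005636), which was not called.

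With library totals alone, the counts of genes that rose were 0 in nuclear Hom against Het, 2 in total Het against WT, 9 for the nuclear minus total change in Het, 1 in nuclear against total Hom, 6 in nuclear against total Het and 0 in nuclear against total WT. The counts that fell were 0 in nuclear Hom against WT, 2 in total Hom against WT, 0 over both fractions in Hom, 0 for the nuclear minus total change in Het and 1 in nuclear against total Het. Called results that reversed were Ccng1 (-0.003428) and Sesn2 (-0.02596) in total Het against WT, the Het nuclear minus total changes of Mdm2 (0.1995), Ccng1 (0.2633) and Aen (0.1118), and Mdm2 in nuclear against total WT (-0.04461). Uncalled ones were Mdm2 in nuclear Hom (0.04242) and Bax in total Het (-0.1612) against WT, Ccng1 over both fractions in Hom (0.04771), the nuclear minus total change of Aen in Hom (0.04325) and of Trp53inp1 in Het (0.3318), and nuclear against total RNA of Mdm2 (0.1549) and Bax (0.138) in Het and of Aen (-0.1228) in WT.

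Total WT replicate 1 as deposited was an alternative added after seeing the data. The comparisons inside nuclear RNA do not use this library and were not rerun. Among the other comparisons 12 calls were lost, and Ccng1 over both fractions in Hom was 0.02911. The nuclear minus total change in Het then fell for 1 gene, and 1 gene was higher in nuclear against total Hom and 0 in nuclear against total WT.

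Leaving out each library in turn, the counts ranged from 1 to 3 for the genes that fell in the nuclear minus total change in Het, 1 to 2 for those that fell in total Hom against WT, 1 to 3 for those higher in nuclear against total Hom and 0 to 2 in nuclear against total WT. Uncalled results that crossed 0 ranged from -0.02617 to 0.05467 for Mdm2 in nuclear Het against WT, -0.05555 to 0.02096 for Bax and -0.295 to 0.1637 for Eda2r in nuclear Hom against Het, -0.004002 to 0.04606 for Bax in total Het against WT and -0.006557 to 0.0901 in total Hom against Het. Others were -0.01385 to 0.004232 for Ccng1 over both fractions in Hom, -0.05215 to 0.0114 for the nuclear minus total change of Trp53inp1 in Het, and -0.03651 to 0.4244 for Eda2r and -0.01207 to 0.07459 for Phlda3 in nuclear against total Hom. Low counts limit Eda2r, at 13, 16 and 21 counts in nuclear WT libraries, and its values carry the widest errors of the 10 genes. Scaled by library totals, the 3 libraries of a group differed on average by more than counting noise in every group. The mean chi-square per gene was 1.37 or more, so all 18 were counted as separate libraries. A few genes can raise this mean, which was 94.6 and 95.5 in the pairs with total Hom replicate 2. It does not tell separate mice from repeated preparations.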

Other observations

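Other gene groups were counted beside the p53 targets, with all genes at 21.4% higher and 21.8% lower in nuclear and 32.9% and 34.1% in total Hom against Het. Of 19 cell cycle genes, 0 rose and 10 fell in nuclear Hom against Het (median log2 change -0.59), whereas of 18 tested in total RNA 5 rose and 0 fell (median 0.21). Their summed level was 96.3 CPM in nuclear Hom, 113 in nuclear Het and 94.7 in nuclear WT, and 96.3 in total Hom, 81.1 in total Het and 98.9 in total WT libraries.

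Of 12 tubular injury genes, 0 rose and 10 fell in nuclear Hom against Het and 11 rose and 1 fell in total Hom against Het. Of 14 clock genes, 3 rose and 9 fell in nuclear Hom against WT (26.5% and 27.8% of all genes), and 11 rose and 3 fell in total Hom, both against WT (30.6% and 31.0% of all genes) and against Het. Of 8 glucocorticoid-induced genes, 8 rose in total Hom against WT and 7 against Het, while 2 rose and 3 fell in nuclear Hom against Het. Per1, which belongs to both lists and was chosen after its values were seen, had a log2 change of 2.05 ± 0.045 (adjusted p = 7.53e-83) in total Hom against Het and -0.097 ± 0.046 (adjusted p = 0.0832) in nuclear Hom against Het. Scaling by library totals alone gave 0 and 12 for the cell cycle genes in nuclear Hom against Het and 8 and 0 in total Hom against Het.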
